A study of Bubalus bubalis with 6 samples.

Results

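The genes described here encode axon guidance proteins: 20 semaphorins, 9 plexins, 2 neuropilins, 2 netrins, 2 UNC5 netrin receptors, 2 Slits, 2 Robo receptors, the ephrin EFNB2 and the Eph receptors EPHA2 and EPHB2. They were chosen by gene symbol from the deposited gene table, and all 42 symbols were found among its 24616 listed genes. The list was drawn up when results of the same comparison were already known, so the values below describe these genes and support no statement about guidance genes as a class.

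RNA-seq was carried out on muscle stem cells (MuSCs) from the muscle of water buffalo (Bubalus bubalis), which the study isolated by enzyme digestion of fetal longissimus and grew as primary cultures. The GM group (3 samples) was kept in serum-rich growth medium and labelled as proliferating. The DM group (3 samples) was moved to medium low in horse serum once nearly confluent, so that myoblasts fuse into myotubes, and was labelled as differentiating. No gene was altered in either group, the labels give no time in medium, and they do not say that samples of a group came from separate cultures or animals, so the p-values measure only the spread between these samples.

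Semaphorins are ligands that share one extracellular domain and mostly signal through plexins, with neuropilins as partners of the plexin for most secreted (class 3) members. Classes 4, 5 and 6 span the membrane and semaphorin 7A is held by a lipid anchor. Netrins bind DCC, neogenin and UNC5 receptors, Slits bind Robo receptors, and ephrins bind Eph receptors on neighbouring cells. In muscle these molecules are known from the guidance of motor axons and vessels, and netrin and semaphorin 3A have also been studied in myoblasts and satellite cells.

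Library totals over genes were 36657735 to 40305237 counts for GM and 35615864 to 38177614 counts for DM. Differentiation was visible in the markers: CKM, the creatine kinase of muscle, had 24 to 60 counts per GM sample and 3120 to 3952 per DM sample, and MYF5, a myogenic factor of undifferentiated cells, had 5665 to 5939 and 674 to 946 counts. The GM samples were not free of muscle fibre transcripts. The myosin gene MYH3 had 8605 to 17334 counts per GM sample and 55632 to 100193 per DM sample. DM replicate 3 stood apart. Its CPM (counts scaled to the library, with TMM factors) differed by more than 1.5-fold from the mean of DM replicates 1 and 2 in 16 of the 42 guidance genes (38.1%) and in 19.8% of all genes tested, while each of the other 5 samples differed so from its own group in 4 to 7 of the guidance genes and in 12.6 to 14.8% of all genes. In the same sample SNAP25, a neuronal synapse gene, had 153 counts against 3 in each of the other DM samples, the myosin gene MYH3 was the highest and the matrix gene DCN was the lowest of the group. The part of these differences in the results was not tested.

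All 42 genes had at least 10 counts in total and were tested. By edgeR, a gene being called where its log2 fold change exceeded 1 in either direction at an adjusted p under 0.05 over all genes, 18 of the 42 were called (42.9%), 13 higher and 5 lower in DM, and 24 were not called. Of the 15576 genes tested, 25.3% were called, 15.0% higher and 10.3% lower. The 3 GM and the 3 DM samples did not overlap in 34 of the 42 genes (81.0%) and in 68.8% of all genes tested, and with no minimum fold change 31 passed the adjusted p, 18 higher and 13 lower, against 63.0% of all genes. The median log2 fold change of the 42 was 0.33, and 0.03 over all genes. It rested on DM replicate 3, for without that sample it was 0.05, and 0.01 over all genes. The count called was then 12 higher and 5 lower.

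**Figure D1:**
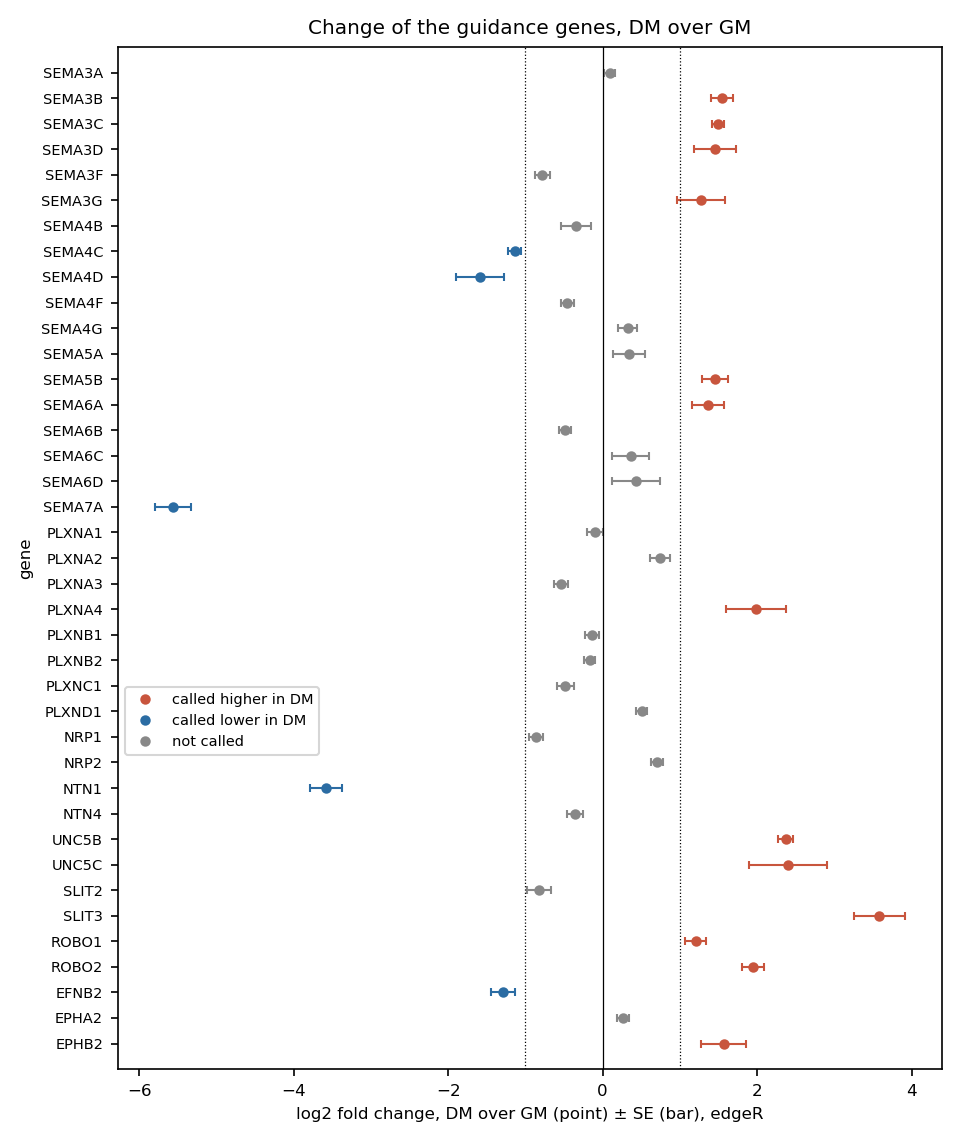
Log2 fold change of each guidance gene, DM over GM, by edgeR (horizontal axis), with its standard error as a bar and 1 gene per line in order of family. Dotted lines mark a log2 fold change of 1 in either direction, and SEMA3E, SEMA4A and PLXNB3, with at most 12 counts in any sample, are left out. SEMA7A (-5.56) and NTN1 (-3.58) lie far to the left and SLIT3 (3.58) far to the right, while 8 of the 9 plexins were not called.

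SEMA7A (chr21:34626181-34651240), the lipid-anchored semaphorin, fell the most of the 42. Its raw counts were 7336, 7375 and 6361 in GM samples and 154, 170 and 69 in DM samples. Every DM sample lay far below every GM sample, and DM replicate 3 was the lowest. The log2 fold change was -5.56 (SE 0.23), a 47.3-fold lower level in DM. Per length, as RPKM (reads scaled by transcript length and library size), its level went from 79.7 ± 2.48 to 1.58 ± 0.677 (SD, n = 3). In GM it was the highest of the 42 genes and in DM it ranked 32nd. No gene known to encode one of its receptors fell as far. Plexin C1 (PLXNC1) had 3.35 ± 0.415 RPKM in GM and 2.24 ± 0.0285 in DM, and the integrin subunit ITGB1 had 576 and 344 RPKM. The integrin subunit ITGA1 was higher in DM, with 3.71 ± 0.398 and 6.19 ± 0.568 RPKM (log2 fold change 0.83, SE 0.11, under the minimum for a call). In bulk RNA, fewer cells of a type and less RNA per cell cannot be told apart, here and in the results that follow.

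Class 3 semaphorins, the secreted ligands, mostly went the other way, with 4 of 7 called higher and 0 lower. Of all genes tested, 15.0% were called higher and 10.3% lower, shares that also stand behind the counts for the families below. SEMA3C (chr4:40140494-40345588) had 47.9, 40.8 and 41.1 CPM in GM samples and 122, 120 and 124 CPM in DM samples. The DM samples agreed within a few CPM and none approached the GM samples. The log2 fold change was 1.50 (SE 0.08), and its RPKM of 46.7 ± 0.900 made it the highest semaphorin in DM. SEMA3D had 18.5, 14.3 and 16.1 CPM in GM samples and 56.4, 54.4 and 23.1 CPM in DM samples. DM replicate 3 lay only a little above the GM samples, and the groups still did not overlap (log2 fold change 1.46, SE 0.27).

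SEMA3B rose from 3.81, 3.87 and 3.38 CPM to 11.5, 11.1 and 9.68 CPM, without overlap and at a low level (log2 fold change 1.54, SE 0.14). SEMA3G had 49, 49 and 37 raw counts in GM samples and 64, 82 and 146 in DM samples. Its log2 fold change of 1.27 (SE 0.31) rested on DM replicate 3: without it the value was 0.90 and the call was lost (edgeR adjusted p = 0.0046). SEMA3A, the best known repellent of the class, had 54.5, 49.3 and 53.1 CPM in GM samples and 58.1, 56.4 and 52.9 CPM in DM samples, which overlapped (log2 fold change 0.09, SE 0.07, edgeR adjusted p = 0.28). SEMA3F was lower in DM, 30.4, 24.0 and 23.2 CPM against 43.1, 46.2 and 44.0 CPM, at a log2 fold change of -0.78 (SE 0.10) that did not reach the minimum for a call. SEMA3E had 3, 0 and 0 counts in GM samples and 3, 4 and 8 in DM samples, too few for a fold change.

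Several of these genes are neighbours. SEMA3D, SEMA3A, SEMA3E and SEMA3C lie in this order on chromosome 4, with 2.72 Mb and 9 listed genes between SEMA3E and SEMA3C. SEMA3D and SEMA3A have 838 kb and no other listed gene between them. SEMA3D was called higher and SEMA3A, whose groups overlapped, was not. SEMA3B and SEMA3F lie 71.2 kb apart on chromosome 22 with 3 listed genes between them, and their values pointed in opposite directions: the RPKM ratio of SEMA3B to SEMA3F was 0.0877 ± 0.00614 in GM and 0.443 ± 0.0453 in DM. ROBO2 and ROBO1, 1.03 Mb apart on chromosome 1 with 2 listed genes between them, were both called higher. These pairs were picked after their values were seen. Coordinates are those of the deposited tables, which carry cattle identifiers and name no genome build.

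Among the 6 class 4 semaphorins, membrane-spanning ligands of B plexins and other receptors, 2 were called lower and 0 higher. SEMA4C (chr11:2784990-2793644), a ligand of plexin B2 and the most abundant of the class, had 77.1, 80.6 and 76.3 CPM in GM samples and 37.0, 38.5 and 30.8 CPM in DM samples. All DM samples lay well below the GM samples (log2 fold change -1.14, SE 0.09). SEMA4D, a ligand of plexin B1 also known from immune cells, had 137, 163 and 158 raw counts in GM samples and 30, 33 and 73 in DM samples. DM replicate 3 was the highest of its group and still under every GM sample (log2 fold change -1.59, SE 0.31). SEMA4F was lower in DM without reaching the minimum fold change (-0.46, SE 0.08), and SEMA4B, at -0.35 (SE 0.20), did not pass the adjusted p. SEMA4G had a log2 fold change of 0.33 (SE 0.13), but it overlaps MRPL43 on the other strand, which had 4483 counts against its own 1690, and since the strand setting of the counting is not given its value is uncertain. SEMA4A had 0 to 12 counts per sample.

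Of the classes 5 and 6, SEMA5B and SEMA6A were called higher. SEMA5B had 5.45, 3.99 and 6.01 CPM in GM samples and 12.5, 13.1 and 16.6 CPM in DM samples (log2 fold change 1.45, SE 0.17). SEMA6A, a ligand of A plexins, had 4.44, 4.23 and 4.83 CPM in GM samples and 14.7, 12.3 and 7.89 CPM in DM samples (log2 fold change 1.37, SE 0.21). In neither gene did the groups overlap, and DM replicate 3 was the highest for SEMA5B and the lowest for SEMA6A. The more abundant members of these classes were not called. SEMA5A had 13.6, 13.8 and 11.0 CPM in GM samples and 15.9, 11.0 and 21.7 CPM in DM samples, which overlapped. SEMA6B had 24.7, 25.0 and 23.8 CPM in GM samples and 17.4, 17.8 and 17.2 CPM in DM samples, a shift that was small next to the minimum fold change though wider than the spread of its samples (log2 fold change -0.49, SE 0.08). SEMA6C and SEMA6D overlapped between the groups, with DM replicate 3 at 1.88 and 2.26 times the mean CPM of the other DM samples.

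Summed over all 20 genes, semaphorin RPKM was 220 ± 5.0 in GM and 155 ± 6.78 in DM (SD, n = 3). SEMA7A alone accounted for the sign of that difference, for the sum of the other 19 was 141 ± 2.91 in GM and 153 ± 6.14 in DM. SEMA7A made up 36.2% ± 0.505 of the semaphorin RPKM in GM and 1.01% ± 0.406 in DM, and SEMA3C 8.02% ± 0.617 and 30.3% ± 1.94. Class 3 as a whole had 70.0 ± 3.12 RPKM in GM and 104 ± 7.74 in DM, class 4 had 51.3 ± 1.17 and 28.0 ± 0.889, and class 6 had 13.5 ± 0.184 and 12.4 ± 0.448. Since RPKM lacks the TMM factors, the small class 6 difference cannot be read as a fall. The plot of semaphorin RPKM by class shows the change of makeup in each sample.

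**Figure D2:**
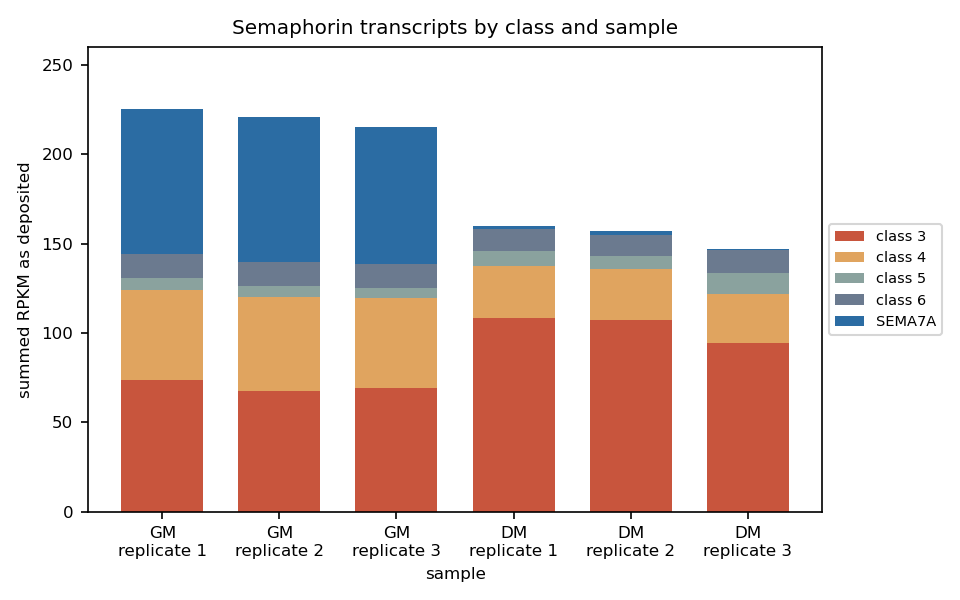
Summed RPKM of the semaphorin genes (vertical axis) in each of the 6 samples (horizontal axis), stacked by class with SEMA7A as the only member of class 7. The SEMA7A block, 76.9 to 81.3 RPKM in GM samples, shrinks to between 0.801 and 2.02 RPKM in DM samples, while class 3 widens from between 67.5 and 73.5 RPKM to between 94.6 and 109 RPKM.

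Netrin-1 was called lower, and the netrin receptors did not all move the same way. UNC5B and UNC5C were called higher and UNC5A lower. Neogenin (NEO1), more abundant than UNC5B in GM, was not called. It had 19.7 ± 1.24 RPKM in GM and 21.6 ± 3.13 in DM (log2 fold change 0.23, SE 0.10, edgeR adjusted p = 0.067). DCC was not among the listed genes. NTN1 (chr19:29084419-29269338), the diffusible netrin, had 1536, 1619 and 1516 raw counts in GM samples and 121, 154 and 70 in DM samples. Every DM sample was far below the GM samples, DM replicate 3 the farthest (log2 fold change -3.58, SE 0.21, a 12.0-fold lower level in DM). NTN4, a netrin of basement membranes, had 66.0, 64.9 and 71.6 CPM in GM samples and 56.2, 57.7 and 43.6 CPM in DM samples. The groups did not overlap, but the log2 fold change was -0.36 (SE 0.10), under the minimum. As RPKM, NTN1 went from 22.1 ± 0.819 to 1.72 ± 0.649 and NTN4 from 19.5 ± 1.04 to 14.2 ± 2.10, so that NTN4 held most of the netrin RPKM in DM.

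UNC5B (chr28:27511423-27599754), a netrin receptor best known from blood vessels, had 18.4, 18.1 and 19.8 CPM in GM samples and 103, 83.8 and 105 CPM in DM samples. The gap between the groups was several times the spread within either (log2 fold change 2.37, SE 0.10). Its RPKM rose from 5.08 ± 0.248 to 24.5 ± 2.65, which moved it from rank 21 to rank 5 among the 42 genes. UNC5C had only 15, 36 and 15 raw counts in GM samples and 59, 62 and 191 in DM samples. DM replicate 3 was 3.00 times the other DM samples in CPM, and the log2 fold change of 2.40 (SE 0.51) became 1.67 without it and was still called. Of the other UNC5 genes, UNC5A was called lower (log2 fold change -2.08, SE 0.20), from 380, 465 and 403 raw counts in GM samples to 73, 70 and 119 in DM samples, and UNC5D had at most 7 counts in any sample.

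SLIT3 (chr20:324518-507045), a secreted Robo ligand, rose the most of the 42. It had 25, 12 and 24 raw counts in GM samples and 231, 267 and 154 in DM samples. Counts were low in all GM samples and well above them in all DM samples, with DM replicate 3 the lowest of its group (log2 fold change 3.58, SE 0.33). SLIT2, the more abundant Slit in both groups, had 16.4, 13.0 and 16.1 CPM in GM samples and 9.44, 9.54 and 6.65 CPM in DM samples. The groups did not overlap, and the log2 fold change of -0.83 (SE 0.16) was under the minimum. SLIT2 had 29.7 ± 9.92 times the RPKM of SLIT3 in GM and 1.30 ± 0.138 times in DM, and the summed RPKM of both Slits was 3.54 ± 0.475 and 3.20 ± 0.737, a difference within the spread of the samples.

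Both Robo receptors rose. ROBO1 had 40.9, 32.8 and 34.7 CPM in GM samples and 102, 80.3 and 67.3 CPM in DM samples (log2 fold change 1.20, SE 0.14). ROBO2 had 6.49, 6.25 and 5.43 CPM in GM samples and 22.2, 19.9 and 28.1 CPM in DM samples (log2 fold change 1.95, SE 0.14). The groups did not overlap for either gene, and DM replicate 3 was the lowest DM sample for ROBO1 and the highest for ROBO2. Their summed RPKM was 8.16 ± 0.880 in GM and 19.7 ± 2.28 in DM.

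**Figure D3:**
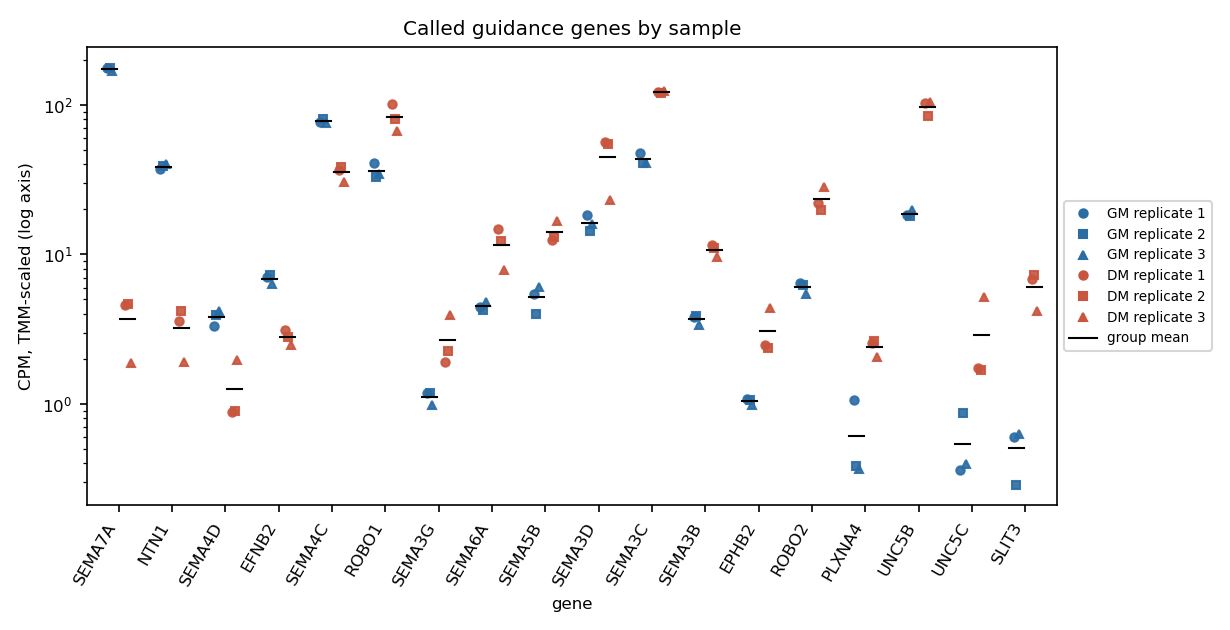
CPM of the 18 called guidance genes (vertical axis, log scale) in each sample, with genes on the horizontal axis in order of log2 fold change. Blue marks are GM samples, red marks DM samples, the shape gives the replicate and the black bar the group mean. GM and DM samples are apart in every gene shown. DM replicate 3 (red triangle) is more than 1.5-fold from the mean of the other DM samples in SEMA7A, NTN1, SEMA3D, UNC5C, SEMA4D, SEMA3G, EPHB2, SEMA6A and SLIT3.

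Of 9 plexins, the receptors of semaphorins, 1 was called, and the summed RPKM of the family was 164 ± 5.76 in GM and 142 ± 7.74 in DM. Part of that difference comes from the lack of TMM factors in RPKM. PLXNB2, the receptor of SEMA4C and the most abundant of the plexins, had 458, 438 and 440 CPM in GM samples and 424, 357 and 409 CPM in DM samples. The DM samples lay just below the GM samples, and the log2 fold change of -0.17 (SE 0.07) did not pass the test (edgeR adjusted p = 0.065). PLXNA1 and PLXNB1 overlapped between the groups, with log2 fold changes of -0.10 (SE 0.10) and -0.14 (SE 0.09). PLXNA3 and PLXNC1 were lower in DM and PLXNA2 and PLXND1 higher, each passing the adjusted p but with log2 fold changes between -0.54 and 0.74, under the minimum. PLXND1, the receptor of SEMA3E in vessels, had 14.4 ± 0.690 RPKM in GM and 19.1 ± 1.60 in DM.

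PLXNA4, a partner of neuropilin 1 and of class 6 semaphorins, was the called plexin. It had 44, 16 and 14 raw counts in GM samples and 86, 97 and 76 in DM samples (log2 fold change 1.99, SE 0.39). GM replicate 1 was the highest GM sample and, without it, the log2 fold change was 2.67. At 0.107 ± 0.0703 RPKM in GM and 0.400 ± 0.0538 in DM it remained far less abundant per length than the other A plexins. PLXNB3 had 3 to 10 counts per sample.

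The neuropilins differed from each other. NRP1, the partner for semaphorin 3A, had 91.6, 86.9 and 89.3 CPM in GM samples and 48.3, 43.5 and 55.6 CPM in DM samples. NRP2, the partner for semaphorin 3F, had 95.3, 86.5 and 84.4 CPM in GM samples and 157, 133 and 142 CPM in DM samples. The groups did not overlap for either gene, NRP1 being lower and NRP2 higher in all 3 DM samples. The log2 fold changes, -0.86 (SE 0.09) for NRP1 and 0.70 (SE 0.08) for NRP2, passed the adjusted p of edgeR and were under the minimum for a call. Their summed RPKM was 59.4 ± 2.68 in GM and 59.9 ± 3.60 in DM. Since RPKM lacks the TMM factors, these sums cannot show that the total was unchanged. The RPKM ratio of NRP2 to NRP1 was 0.976 ± 0.0468 in GM and 2.90 ± 0.346 in DM, a ratio taken after the values had been seen and not tested.

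**Figure D4:**
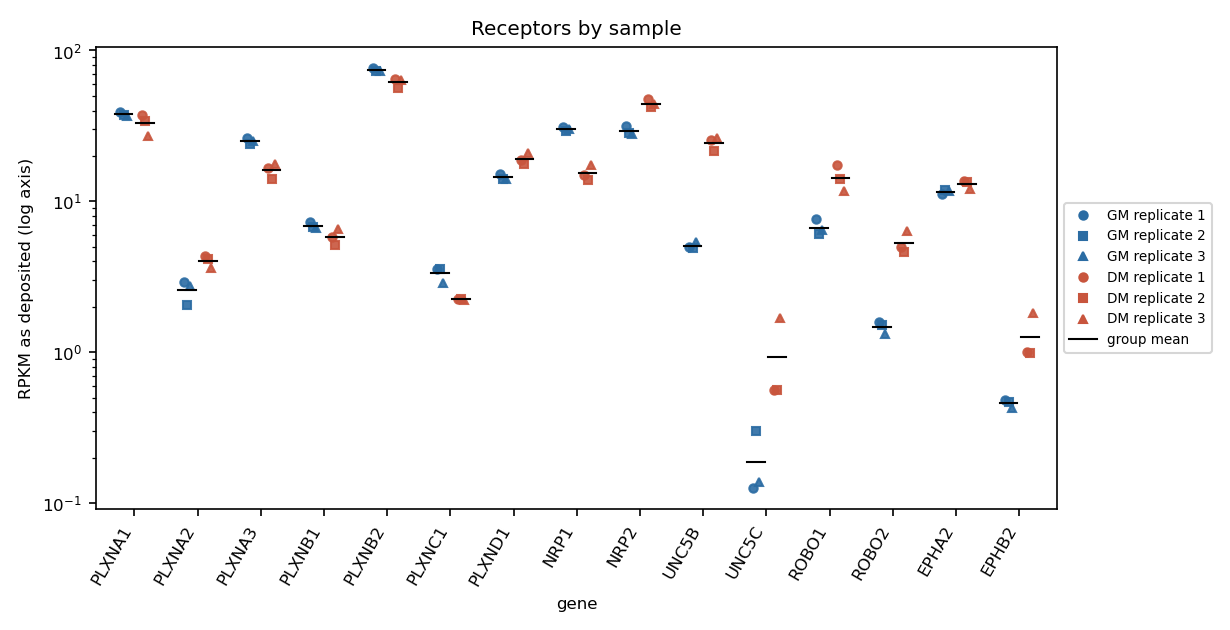
RPKM (vertical axis, log scale) of the guidance receptors in each sample, with the mean of each group as a black bar, leaving out PLXNA4 and PLXNB3, which are below 0.5 RPKM. PLXNA1, PLXNB1 and PLXNB2 have GM and DM samples close together, NRP1 and NRP2 move apart in opposite directions, and UNC5B rises from about 5.08 to 24.5 RPKM.

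EFNB2, a membrane-bound ephrin known from arteries, was called lower, with 7.02, 7.24 and 6.30 CPM in GM samples and 3.11, 2.81 and 2.49 CPM in DM samples (log2 fold change -1.29, SE 0.16). EPHB2, a receptor of B ephrins, was called higher at a low level, with 45, 44 and 37 raw counts in GM samples and 84, 86 and 163 in DM samples (log2 fold change 1.56, SE 0.29). Neither gene overlapped between the groups. EPHA2, the more abundant Eph receptor of the list, had 34.4, 36.7 and 36.4 CPM in GM samples and 45.8, 43.4 and 39.5 CPM in DM samples (log2 fold change 0.26, SE 0.08, under the minimum).

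The transcript table gave 44 transcripts of these genes, 1 for each of 40 genes and 2 each for SEMA4F and ROBO1. For 40 transcripts the counts were those of the gene, so they are the same reads and no second measurement. By edgeR 19 of the 44 were called, 14 higher and 5 lower, against 25.6% of the 16352 transcripts tested, and both ROBO1 transcripts were among the higher.

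Another 93 genes of guidance signalling, listed from general knowledge, gave 82 tested genes, of which 11 were called higher and 11 lower (26.8%, near the 25.3% of all genes, which also stands behind the counts by list below). Among the 16 ligands tested, 2 were higher and 4 lower: the netrin G gene NTNG2 rose (log2 fold change 2.62, SE 0.23), NTN5 fell from between 19 and 52 counts to between 4 and 10 (-2.19, SE 0.52), and RGMB, a ligand of neogenin with the highest RPKM of them over all 6 samples though not in DM alone, fell (-1.18, SE 0.10). Among the 14 receptors tested, 1 was higher and 1 lower. EPHA3 rose from between 8.99 and 10.9 CPM to between 53.2 and 84.9 CPM (2.74, SE 0.16), UNC5A fell as above, and EPHB4, with the highest RPKM over all 6 samples though not in DM alone, was not called (-0.54, SE 0.09).

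Among the 11 semaphorin co-receptors tested, 2 were higher and 1 lower. MET, the receptor of hepatocyte growth factor and a partner of B plexins, fell from between 116 and 126 CPM to between 9.68 and 16.7 CPM (log2 fold change -3.15, SE 0.16), without overlap. Its relative MST1R rose from between 14 and 26 raw counts to between 57 and 133 (2.47, SE 0.42), and ITGB1, the most abundant, was not called (-0.65, SE 0.06). Among the 41 intracellular effectors tested, 6 were higher and 5 lower. DPYSL4, of the collapsin response mediator family, fell (log2 fold change -2.08, SE 0.13), and CFL1, the actin-severing cofilin and the most abundant, fell just past the minimum (-1.05, SE 0.07). The call for CFL1 was lost without DM replicate 2, at -0.98. It was also lost with the study's RPKM rule (-0.99) and in the test against a fold change of 2.

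Markers of other cell types were measured in the same libraries. Of 8 fibroblast markers, which include collagens that muscle cultures also express, 6 were called higher and 0 lower, and their summed CPM went from between 35307 and 36055 in GM samples to between 97380 and 123334 in DM samples. Of 9 myoblast and myotube markers, 5 were higher and 1 lower, with summed CPM of 2789 to 3335 and 5691 to 7949. Of 7 endothelial markers, 1 was higher (TEK) and 3 lower, with summed CPM of 4.56 to 5.50 and 6.42 to 8.68. Of 9 neuron and Schwann cell markers, 5 were tested and 1 was higher (SNAP25, in DM replicate 3 alone), with summed CPM of 46.2 to 50.2 and 30.5 to 41.2. Most of these sums was TUBB3 alone, with 44.9 to 47.7 CPM in GM samples and 28.7 to 34.9 CPM in DM samples. TUBB3 was not called, and ELAVL3 and ELAVL4 were among the markers with 3 counts or fewer in every sample. Of 6 macrophage and leukocyte markers, 1 was higher and 1 lower, with summed CPM of 6.20 to 8.39 and 7.32 to 13.9 and PTPRC at 3 counts or fewer. Of 5 smooth muscle and pericyte markers 0 were called, with summed CPM of 1222 to 1413 and 1388 to 1685. ACTA2 made up most of these sums, with 1086 to 1280 CPM in GM samples and 1261 to 1470 CPM in DM samples. CSPG4 had 147 CPM in DM replicate 3 against 58.5 and 53.6 CPM in DM replicates 1 and 2. Of 4 adipocyte markers 1 was higher, with summed CPM of 0.343 to 0.651 and 0.946 to 1.28. The part of these cell types in the values of the guidance genes was not tested.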

How the data were processed

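RNA-seq of polyadenylated RNA from 3 GM and 3 DM samples was analysed, grouped by the labels. The count columns hold raw reads per gene or transcript, deposited by the authors without normalization. The RPKM values were computed by the authors from these counts and a deposited length column in bases. The study's methods name HISAT2 and the buffalo genome, the tables list cattle Ensembl identifiers with no build, and the submitters' processing notes name Bowtie 0.12.2 with mm8 and mm9, so the alignment reference is uncertain. Strand setting and treatment of reads shared between paralogs are not given in the sources used here. The deposited lists of the authors' own fold changes, p-values and q-values, and the ncRNA table, were not used. No sample column was left unmapped.

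Counts were tested with edgeR 4.0.16 in R 4.3.3 (glmQLFit and glmQLFTest, TMM, at least 10 counts in total) on the whole gene table and, separately, the whole mRNA table, with Benjamini-Hochberg adjustment over all features. The call thresholds follow the study's methods. Standard errors of log2 fold changes were derived from the F statistic. On simulated data with 200 genes changed 4-fold, as many up as down, 167 were recovered with 6 false calls among 15431 genes. In the data 25.3% of genes were called, 59.2% of them higher, so these counts may not carry over. Tables were summarised with Python 3.11.15 and pandas 2.3.3 and drawn with matplotlib 3.10.9. The members and lists were chosen with earlier results of these data known. Values by sample are given for called members and for the most abundant member of each family, and of each list of other genes the 2 called with the largest change and the one of highest mean RPKM over all 6 samples are named. Some genes that this rule or the marker lists hold are not reported here. Alternatives were DESeq2 1.42.0, DESeq2 size factors, library size alone, other filters, calls without a minimum fold change, testing for more than a 2-fold change, a replicate block and leaving out each sample.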

Additional observations from a re-analysis of the deposited data

How the results depend on the processing

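Among the guidance genes, 13 higher and 5 lower calls were also counted with DESeq2, DESeq2 size factors, library size alone, no filter on low counts and filterByExpr. With the study's RPKM rule (at least 1 RPKM in more than 50% of samples) 32 of the 42 were tested, 8 were higher and their median log2 fold change was 0.053. With no minimum fold change 13 were lower. In the test against a fold change of 2, 8 were higher and 2 lower. Over all genes these settings gave 2197, 9813 and 2293 calls against 3936. For the other guidance genes, 7, 24 and 7 were then higher against 11, and with no minimum fold change 31 and in the test against a fold change of 2 5 were lower, also against 11. Leaving out each sample gave 3647 to 3995 calls over all genes, 12 to 14 higher and 5 lower guidance genes, 18 to 20 transcripts, 10 to 11 higher and 10 to 13 lower other guidance genes, and a median of 0.054 (without DM replicate 3) to 0.45.

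The test against a fold change of 2 lost SEMA3D, SEMA3G, SEMA4C, SEMA4D, SEMA6A, ROBO1, EFNB2 and EPHB2, and SEMA3E was called without GM replicate 1, which left GM at 0 counts. With library size alone 52.8% of all calls were higher against 59.2%, and the median over all genes was -0.07 against 0.03. The 18 called guidance genes kept their direction under every setting that tested them, the RPKM rule leaving out SEMA3G, SEMA4D, PLXNA4, UNC5C, SLIT3 and EPHB2. SEMA3A (library size alone), SEMA4A, SEMA6C, SEMA6D and PLXNA1 (without DM replicate 3) and PLXNB3 (without GM replicate 2 or without DM replicate 1 or 2), none of them called, changed sign. A replicate block gave 13 higher and 5 lower guidance genes and 3837 calls over all genes. The deviations of same-numbered GM and DM samples correlated at -0.0076, -0.022 and -0.010. With 3 samples per group, such weak correlations cannot show whether the replicate numbers pair the samples. Depth limits SEMA3E, SEMA4A and PLXNB3, with at most 12 counts per sample.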
